A study of Mus musculus with 4 samples.

Results

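Brown adipose tissue of leptin receptor-deficient db/db mice was compared between 16 and 8 weeks of age, cell by cell, in the stromal vascular fraction (SVF). The SVF is what remains of the tissue once the floating adipocytes are removed, and it holds immune cells, fibroblast-like stromal cells and cells of the vessel wall. The comparison used 1 library of each age, with 11648 cell barcodes from db/db mice at 8 weeks and 5833 from db/db mice at 16 weeks. These 17481 barcodes were all those in which between 250 and 6000 genes and between 500 and 30000 unique molecular identifiers (UMIs, each counting 1 captured mRNA molecule) were found, and in which mitochondrial transcripts took less than 15% of the UMIs, out of 28887 that met the same limits in the whole series.

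Both groups carried the genotype DB_DB on strain C57BL6/J. The leptin receptor mutation, which makes the mice hyperphagic and obese, was thus present at both ages, and age was the labelled difference. The WT library (C57BL6/J, 10 weeks, 5944 barcodes) was measured in the same way and is given as the background. Each library was a pool of the SVF of several mice, so no spread between animals could be estimated. With 1 library on each side no test was possible, the intervals below cover counting error alone, and "higher" and "lower" describe these 2 libraries and not the ages in general. Age cannot be told apart from anything else in which the 2 preparations differed.

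Several such differences were visible before any gene was compared. The mice are described as males, and at 8 weeks the female-specific transcript Xist stood at 0.187 CPM (counts per 1000000 UMIs) against 164 CPM for the Y-linked genes together. At 16 weeks Xist stood at 207 CPM and the Y-linked genes at 17.7 CPM. In that library 2199 barcodes (37.7%) held a Xist UMI, 356 (6.10%) held a Y-linked UMI and 18 held both, so the 16-week pool contained cells of both kinds and did not match its description. Results were therefore also computed in barcodes with a Y-linked UMI and no Xist. Of the deposited barcodes, 35.6% at 8 weeks and 1.04% at 16 weeks exceeded the mitochondrial limit, and the median mitochondrial share of those kept was 5.94% and 0.799%. The kept UMIs numbered 53420105 and 26558173, with medians of 3193 and 2733 per barcode. The 2 libraries shared 25 barcode sequences. Haemoglobin transcripts, which come from red blood cells, made up 872 CPM of the barcodes outside every lineage gate at 8 weeks and 45010 CPM at 16 weeks.

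Lineages were defined by raw UMIs of a few marker genes. A macrophage barcode held at least 3 UMIs of the complement genes C1qa, C1qb and C1qc, at least 3 times as many of these as of the matrix genes Col1a1, Col3a1 and Dcn, and fewer than 2 UMIs of the T cell receptor genes Cd3e and Trac. A stromal barcode was the mirror image, with at least 3 matrix UMIs and at least 3 times as many of these as of C1q. A T cell barcode held at least 2 UMIs of Cd3e and Trac and fewer than 3 of each other set. All 8 independent markers of each lineage were detected in its own gate in both libraries. Summed macrophage markers stood at 11153 CPM and 10390 CPM in the macrophage gate at 8 and 16 weeks, summed stromal markers at 16034 CPM and 17321 CPM in the stromal gate, and summed T cell markers at 2404 CPM and 2723 CPM in the T cell gate.

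Macrophages of adipose tissue take up lipid, dying cells and debris. In obesity a lipid-associated state, recognised by the lipid receptor Trem2, the lysosomal glycoprotein Gpnmb and the secreted phosphoprotein Spp1, is known beside the resident perivascular state that carries the hyaluronan receptor Lyve1, the haemoglobin scavenger receptor Cd163 and the folate receptor Folr2. Stromal cells of the same tissue include Pi16- and Dpp4-positive progenitors, cells committed to adipogenesis, and matrix-producing fibroblasts.

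Cell division genes (higher at 16 weeks) and inflammatory genes that nuclear factor kappaB is known to drive (lower at 16 weeks) were among the genes that differed most between the macrophages of both ages, so the start regions of 4 of them are printed here as reference sequence (RefSeq, GRCm38.p6), from 250 bases before to 30 bases after the annotated start. Birc5 encodes survivin and Ccnb2 encodes cyclin B2, both used in mitosis. Cxcl1 and Cxcl2 encode neutrophil chemokines. Capitals mark the letters CCAAT and TTTGAA, known from cell division genes, and the kappaB letters (GGG, any 2 bases, then TTTCC), each searched in all 4 regions on either strand. The windows are chr11:117848987-117849266 on the plus strand for Birc5, chr9:70421525-70421804 on the minus strand for Ccnb2, chr5:90890995-90891274 on the plus strand for Cxcl1 and chr5:90903649-90903928 on the plus strand for Cxcl2.
Birc5: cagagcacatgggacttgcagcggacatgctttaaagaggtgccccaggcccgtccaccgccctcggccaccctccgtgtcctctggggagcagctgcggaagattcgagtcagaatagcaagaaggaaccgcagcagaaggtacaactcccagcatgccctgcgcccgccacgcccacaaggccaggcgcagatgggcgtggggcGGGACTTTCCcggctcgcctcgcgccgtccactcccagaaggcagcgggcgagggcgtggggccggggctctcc
Ccnb2: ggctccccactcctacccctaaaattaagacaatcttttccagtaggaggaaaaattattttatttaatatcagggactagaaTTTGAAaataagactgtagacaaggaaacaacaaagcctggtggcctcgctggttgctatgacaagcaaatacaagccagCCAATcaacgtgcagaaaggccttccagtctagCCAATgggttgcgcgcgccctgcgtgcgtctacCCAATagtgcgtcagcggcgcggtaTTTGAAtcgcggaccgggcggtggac
Cxcl1: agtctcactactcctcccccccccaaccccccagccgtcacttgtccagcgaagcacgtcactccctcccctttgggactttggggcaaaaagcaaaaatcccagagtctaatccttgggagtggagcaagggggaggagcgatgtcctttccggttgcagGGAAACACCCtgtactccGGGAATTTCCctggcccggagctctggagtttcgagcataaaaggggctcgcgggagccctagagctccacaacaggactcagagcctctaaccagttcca
Cxcl2: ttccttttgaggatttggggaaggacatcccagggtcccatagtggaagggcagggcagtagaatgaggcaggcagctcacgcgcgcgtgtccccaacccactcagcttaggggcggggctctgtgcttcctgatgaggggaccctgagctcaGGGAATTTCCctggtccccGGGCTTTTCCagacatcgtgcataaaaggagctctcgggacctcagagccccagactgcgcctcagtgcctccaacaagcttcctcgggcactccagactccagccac
Ccnb2 held 3 CCAAT and 2 TTTGAA matches, Cxcl1 and Cxcl2 held 2 kappaB matches each, and Birc5 held 1 kappaB match and neither of the other letters. CCAAT was found in 8 of the 9 matched start regions of the 11 G2/M genes, against 36.6% of all 27025 start regions, and TTTGAA in 7 of 9 against 17.4%, while the inflammatory genes held them in 2 and 1 of their 10 matched start regions. The kappaB letters were found in 4 of those 10, out of 12 inflammatory genes (Il6, Cxcl1, Cxcl2 and Nfkbia), in 1 of the 9 G2/M regions (Birc5), and in 1.53% of all. A match describes the letters and does not show a bound site.

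The makeup of the SVF differed between the ages. Macrophage barcodes numbered 2543 (21.8%, exact binomial 95% interval 21.1 to 22.6) at 8 weeks and 2032 (34.8%, 33.6 to 36.1) at 16 weeks, a difference of between 11.6 and 14.5 percentage points (95% interval). The WT library held 19.1% macrophage barcodes, below both. Stromal barcodes numbered 7289 (62.6%) at 8 weeks and 1238 (21.2%) at 16 weeks, which was 41.4 points lower, with a difference of -41.4 points (-42.7 to -40.0) against a WT share of 74.9%. T cell barcodes were few, with 48 (0.412%) and 15 (0.257%), and their difference of -0.155 points (-0.330 to 0.0437) was not detectable at this depth.

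The barcodes left without a lineage grew from 1768 (15.2%) to 2548 (43.7%), and these enter every denominator. Among them, 96 at 8 weeks and 1504 at 16 weeks held at least 2 UMIs of 8 endothelial markers, whose summed level was 193 CPM and 2132 CPM. Mural cell markers of pericytes and vascular smooth muscle reached 2 UMIs in 6 and 242 of them. At least 2 UMIs of the 8 macrophage markers were held by 1346 (76.1%) of the ungated barcodes at 8 weeks and 875 (34.3%) at 16 weeks. For the 8 stromal markers the numbers were 826 (46.7%) and 111 (4.36%). These groups can overlap, and their part in the difference of macrophage shares was not tested. With the endothelial-marked barcodes left out of the total, the macrophage difference was 24.9 points, and over gated barcodes alone it was 36.1 points. Stromal barcodes differed by -34.5 and -36.1 points under the same changes. Barcodes with at least 3 UMIs of both the macrophage and the stromal genes made up 18.1% of the 8-week library, 0.909% of the 16-week library and 17.9% of WT. At the edge of the gates, 50 macrophage barcodes at 8 weeks and 80 at 16 weeks held exactly 3 C1q UMIs, while 771 and 96 kept barcodes held exactly 2. For the stromal genes, 155 and 11 gated barcodes held exactly 3 UMIs, and 997 and 46 barcodes held exactly 2. For the T cell genes, 29 and 9 gated barcodes held exactly 2 UMIs, and 87 and 28 barcodes held exactly 1. The counts just below each limit cover all kept barcodes, including those in another gate. With a strict gate of at least 10 marker UMIs the macrophage difference was 7.62 points. The part of free RNA and doublets in these shares was not tested.

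**Figure D1:**
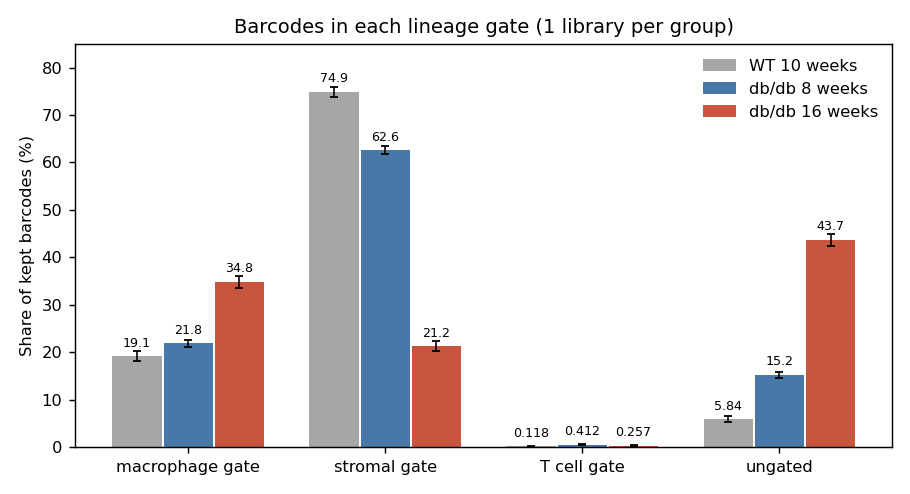
Share of kept barcodes (percent, y axis) in the macrophage, stromal and T cell gates and outside them, for WT, db/db 8 weeks and db/db 16 weeks, with exact binomial 95% intervals that cover counting error alone. Macrophage barcodes made up 21.8% at 8 weeks and 34.8% at 16 weeks, and stromal barcodes 62.6% and 21.2%.

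Macrophages at 16 weeks carried more of the lipid-associated transcripts and fewer of the perivascular, antigen-presenting and inflammatory ones. UMIs were summed over the gated barcodes (16632963 at 8 weeks and 14784175 at 16 weeks) and expressed as CPM. Differences are log2 ratios of the 16-week to the 8-week level. Of 5754 genes with at least 20 CPM in 1 of the 2 libraries, 604 (10.5%) were at least 2-fold higher at 16 weeks and 1050 (18.2%) at least 2-fold lower, with a median log2 ratio of -0.10. Gene lists are set beside these shares, here and in the stromal gate. The lists were chosen with earlier results of these data known, so this comparison describes them and is no test.

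The 13 lipid-associated genes summed to 8591 CPM in WT, 17671 CPM at 8 weeks and 30334 CPM at 16 weeks, a log2 ratio of 0.78 (0.77 to 0.79). Of the 13, 6 were at least 2-fold higher and 0 lower, against 10.5% and 18.2% of all genes, and their median log2 ratio was 0.80. Spp1 (ENSMUSG00000029304, chr5:104435118-104441050, plus strand, GRCm38), which encodes osteopontin, ranked first of the genes higher at 16 weeks, with 3.91 CPM in WT, 138 CPM at 8 weeks and 1303 CPM at 16 weeks and a log2 ratio of 3.24 (3.18 to 3.30). Trem2 (chr17:48346401-48354147, plus strand) stood at 123 CPM in WT, 539 CPM at 8 weeks and 1158 CPM at 16 weeks. The WT library was lowest for both. Lgals3, the galactoside-binding galectin-3, stood at 3697 CPM and 8406 CPM at 8 and 16 weeks, and Fabp5, a cytosolic fatty acid carrier, at 918 CPM and 2099 CPM. Gpnmb (690 CPM and 1429 CPM) and the tetraspanin Cd9 (194 CPM and 448 CPM) were the other members past 2-fold. The remaining members were closer to equal, with Ctsl at 0.80 on the log2 scale, the integrin Itgax at 0.05 and the tetraspanin Cd63 at -0.08.

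The difference was also seen per cell. After each barcode was thinned to 1000 UMIs, which left out 98 shallower macrophage barcodes at 8 weeks and 74 at 16 weeks, Trem2 was detected in 22.0% (20.3 to 23.7) of 2445 barcodes at 8 weeks and in 55.8% (53.6 to 58.0) of 1958 at 16 weeks. In stromal barcodes of the same libraries it was detected in 3.41% and 2.41%, and without thinning in 47.7% and 84.4% of macrophage barcodes. Spp1 was detected in 3.03% and 22.7% of thinned macrophage barcodes (8.61% and 43.0% unthinned), against 0.858% and 1.52% of stromal ones. Gpnmb and Cd9 were less specific to the macrophage gate. Gpnmb was detected in 13.1% and 39.02% of thinned macrophage barcodes, against 15.01% and 19.03% of stromal ones. For Cd9 the shares were 9.28% and 23.4%, below the 26.7% and 30.4% of stromal barcodes at both ages. Median UMIs per barcode were 5224 and 5674 in the macrophage gate and 2937 and 2817 in the stromal gate. The lipid-associated UMIs per 1000 had a median of 9 (10th to 90th percentile 3 to 29) at 8 weeks and 20 (6 to 46) at 16 weeks, and a median of 7 in WT. More lipid-associated than perivascular UMIs were held by 1057 barcodes (43.2%) at 8 weeks, 1612 (82.3%) at 16 weeks and 23.4% in WT. These are ranges of a score and not cell types, and 376 and 150 barcodes lay within 2 UMIs of equality.

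**Figure D2:**
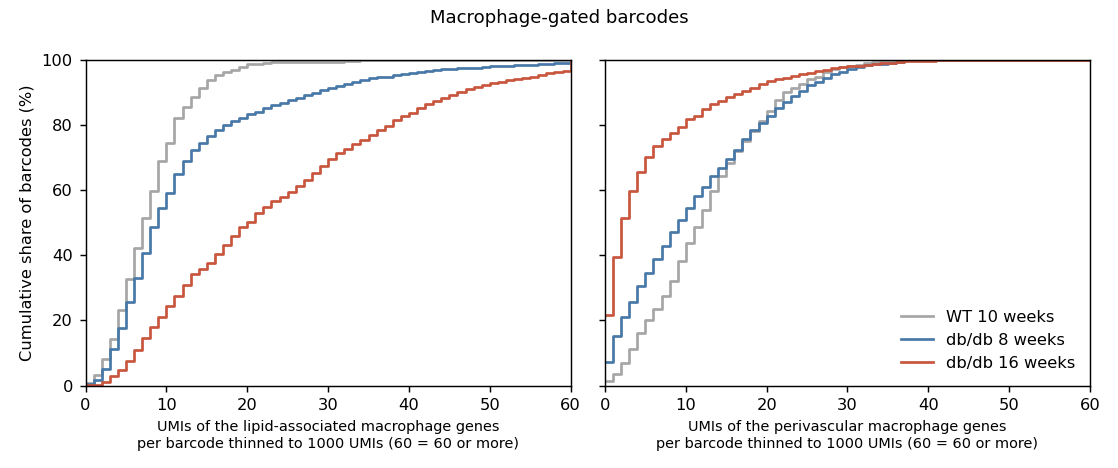
Cumulative share of macrophage barcodes (percent, y axis) holding up to a given number of UMIs of the lipid-associated list (left) and of the perivascular list (right) after thinning to 1000 UMIs (x axis, values from 60 upward drawn at 60), for WT, db/db 8 weeks and db/db 16 weeks. The lipid-associated median was 9 at 8 weeks and 20 at 16 weeks, and the perivascular median was 9 and 2.

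The fatty acid handling genes Cd36, Lpl and Fabp4, which macrophages share with endothelium, did not move together. They are also known as genes of the lipid-associated state but were not part of the 13-gene list above. Cd36, the scavenger receptor for long-chain fatty acids, had a log2 ratio of 0.37 and the lipoprotein lipase Lpl one of 0.38, whereas the fatty acid carrier Fabp4 stood at 2081 CPM and 1743 CPM (-0.26). The list summed to 5850 CPM and 6633 CPM, and 0 of its 3 genes passed 2-fold. Thinned shares with a Cd36 UMI were 61.2% and 72.5% (88.1% and 91.0% unthinned), against 20.3% and 26.5% in stromal barcodes. Endothelial markers in the macrophage gate summed to 26.6 CPM and 58.8 CPM, and their part in these values was not tested. The 26 lysosomal genes tested were near equal, with a summed log2 ratio of 0.06, a median of -0.05 and 0 genes past 2-fold in either direction. Psap, the precursor of the saposins, stood at 0.00 on the log2 scale, and the proton pump subunit Atp6v0d2 at 0.04.

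Perivascular genes were lower. The list summed to 12801 CPM in WT, 8677 CPM at 8 weeks and 3617 CPM at 16 weeks (log2 ratio -1.26), and 8 of 11 tested members were at least 2-fold lower against 18.2% of all genes. Lyve1 stood at 984 CPM in WT, 589 CPM at 8 weeks and 98.0 CPM at 16 weeks (-2.59), and Cd163 at 485 CPM and 85.4 CPM (-2.51). The mannose receptor Mrc1 stood at 904 CPM and 326 CPM (-1.47), and among members with at least 20 CPM the lectins Cd209d (-3.70) and Cd209f (-3.88) differed most. The growth factor Igf1 was near equal (-0.06) and the selenium carrier Selenop was within 2-fold (-0.93). Timd4, a phosphatidylserine receptor of long-lived resident macrophages that fell short of 20 CPM, stood at 15.1 CPM and 0.609 CPM (-4.63). Thinned shares with a Lyve1 UMI were 37.3% and 8.84% (55.2% and 14.5% unthinned), against 2.40% and 0.268% in stromal barcodes. Barcodes with no perivascular UMI among 1000 made up 7.32% at 8 weeks and 21.8% at 16 weeks.

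Genes of MHC class II antigen presentation summed to 11029 CPM at 8 weeks and 1822 CPM at 16 weeks (log2 ratio -2.60), below the 14449 CPM of WT. Of 7, 6 were at least 2-fold lower, against 18.2% of all genes. The invariant chain Cd74 stood at 5484 CPM and 849 CPM (-2.69), H2-Aa at 2200 CPM and 377 CPM, and the class II transactivator Ciita at 20.6 CPM and 3.38 CPM. H2-DMa, a peptide-loading subunit, was within 2-fold (-0.59). Dendritic cell markers, another cell type that carries these genes, summed to 41.9 CPM and 2.84 CPM in the macrophage gate (5 of 5 detected at 8 weeks, Xcr1 and Clec9a at 0 at 16 weeks), and 5 monocyte markers to 105 CPM and 35.9 CPM, and the part of such cells in the MHC class II values was not tested. Thinned shares with an H2-Ab1 UMI were 46.5% and 17.6% (66.3% and 33.3% unthinned), against 8.97% and 2.14% of stromal barcodes.

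Inflammatory genes showed the widest gap of the macrophage lists. They summed to 20431 CPM in WT, 31149 CPM at 8 weeks and 1939 CPM at 16 weeks (-4.01). Of 12, 11 were at least 2-fold lower, against 18.2% of all genes, with a median of -4.92 over the list. Il1b (chr2:129364570-129371139, minus strand), the cytokine interleukin-1 beta, stood at 2426 CPM at 8 weeks and 42.0 CPM at 16 weeks (-5.85), with a UMI in 40.0% and 4.03% of thinned barcodes (51.4% and 7.33% unthinned) against 10.1% and 0.179% of stromal ones. Tnf stood at 786 CPM and 26.8 CPM, and Nfkbia, the inhibitor that nuclear factor kappaB induces, at 3650 CPM and 293 CPM. The chemokine Cxcl2 (ENSMUSG00000058427), whose start region is printed above, stood at 7687 CPM in WT, 15881 CPM at 8 weeks and 507 CPM at 16 weeks (-4.97). Il6 had 1682 UMIs at 8 weeks and 4 at 16 weeks. Ccl2, the monocyte chemokine, was the exception within 2-fold (-0.96). Among the genes with the largest falls, Il1a had 2724 UMIs and 4 UMIs (log2 ratio -9.24, -11.1 to -7.88), Cxcl10 stood at 268 CPM and 3.11 CPM, Cxcl1 at 3756 CPM and 89.8 CPM, and the anti-inflammatory cytokine Il10 at 382 CPM and 9.33 CPM. Tnfsf9, the ligand 4-1BBL, stood at 664 CPM and 21.3 CPM (-4.96), the growth factor Hbegf at 145 CPM and 4.13 CPM (-5.13), and Retnla, a marker of alternatively activated macrophages, at 6624 CPM and 240.1 CPM (-4.79) against 14905 CPM in WT.

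Immediate-early and heat-shock genes, which tissue dissociation is known to induce, moved with the inflammatory genes. In macrophages they summed to 17328 CPM at 8 weeks and 5024 CPM at 16 weeks (-1.79), against 35730 CPM in WT. Of 14, 13 were at least 2-fold lower, against 18.2% of all genes, with Fos within it (-0.36). Type I interferon response genes summed to 459 CPM and 75.6 CPM (-2.60), with Isg15 at 190 CPM and 4.87 CPM and Rsad2, or viperin, at 98.7 CPM and 5.28 CPM. Cholesterol efflux and liver X receptor target genes summed to 12244 CPM and 3707 CPM (-1.72), with apolipoprotein Apoe at 11834 CPM and 3508 CPM (-1.75), the transporter Abca1 at -2.34 and the receptor Nr1h3 at -1.27. Of the TGF-beta genes, the ligand Tgfb1 was near equal at 194 CPM and 204 CPM, and the target Skil was at least 2-fold lower (-2.38). The measures of RNA quality also differed in this gate. Ribosomal protein genes took 15.4% of UMIs at 8 weeks and 23.1% at 16 weeks, mitochondrial transcripts 4.56% and 0.838%, and the nuclear RNAs Malat1 and Neat1 stood at 17688 CPM and 7533 CPM, and at 558 CPM and 98.6 CPM. Haemoglobin transcripts stood at 589.6 CPM and 4179 CPM. The part of dissociation, RNA quality and free RNA in these lists was not tested.

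**Figure D3:**
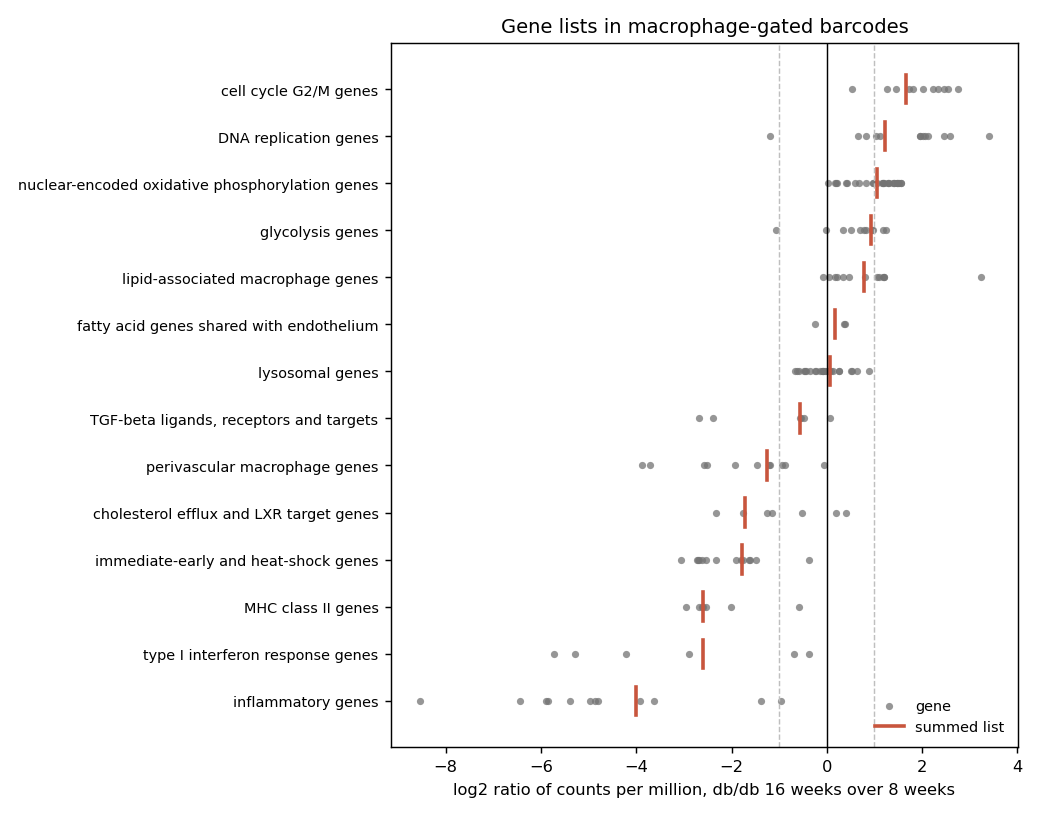
Log2 ratio of the 16-week to the 8-week level (x axis) in macrophage barcodes for each gene list (y axis), with tested genes as grey points, the summed list as a red bar and dashed lines at 2-fold. Inflammatory genes lay lowest, with a summed ratio of -4.01, and G2/M genes highest, with 1.66.

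Cell division genes were higher in macrophages at 16 weeks. The 11 genes of the G2/M phases summed to 152 CPM in WT, 312 CPM at 8 weeks and 987 CPM at 16 weeks (1.66), with 10 of 11 at least 2-fold higher against 10.5% of all genes and Mki67 within it (0.54). Birc5 stood at 26.1 CPM and 175 CPM (2.75, 2.60 to 2.90) and Ccnb2 at 10.8 CPM and 62.4 CPM (2.53). DNA replication genes summed to 361 CPM and 837 CPM (1.21), and 10 of 13 were at least 2-fold higher, against 10.5% of all genes. The ribonucleotide reductase subunit Rrm2 stood at 3.41, thymidine kinase Tk1 at 2.58 and the PCNA-associated factor Pclaf at 2.47. Slbp, which binds histone mRNA, was the member at least 2-fold lower. Barcodes with at least 2 G2/M UMIs after thinning numbered 71 of 2445 (2.90%, 2.27 to 3.65) at 8 weeks and 303 of 1958 (15.5%, 13.9 to 17.2) at 16 weeks, a difference of 12.6 points (10.8 to 14.4), and 1.33% in WT. Without thinning the shares were 20.1% and 38.2%. Among barcodes with more lipid-associated than perivascular UMIs the share was 5.30% and 16.7%, and among those with more perivascular UMIs it was 1.07% and 7.07%. With equal UMIs it was 1 of 77 barcodes at 8 weeks and 11 of 35 (31.4%, 16.9 to 49.3) at 16 weeks. In stromal barcodes, as the background, the share was 1.21% and 2.14%.

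Other genes high at 16 weeks by the ranking were of mixed kinds. Cdca3, a regulator of mitotic entry, stood at 9.44 CPM and 68.2 CPM, and Gmnn, the replication licensing inhibitor geminin, at 22.6 CPM and 124 CPM. The metallothionein Mt3 stood at 12.9 CPM and 93.9 CPM (2.87), the neuropeptide Npy at 13.05 CPM and 68.6 CPM, and Plp2, a membrane protein encoded on chromosome X, at 61.3 CPM and 265 CPM. For Mt3 the ratio was 1.16 in Y-linked barcodes and 0.58 in macrophages gated at 10 C1q UMIs, and for Npy it was 1.80 in the latter. Without the deepest 10% of barcodes the ratio of Spp1 was 4.26, of Cdca3 3.54, of Birc5 3.84 and of Ccnb2 3.69. In Y-linked barcodes Spp1 stood at 4.13, Cxcl1 at -4.61, Tnfsf9 at -3.90 and Retnla at -6.57.

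The nuclear-encoded oxidative phosphorylation genes were higher and summed to 8362 CPM and 17318 CPM (1.05). Of 28, 17 were at least 2-fold higher and 0 lower, against 10.5% and 18.2% of all genes. Ndufa4 stood at 327 CPM and 872 CPM, Atp5e at 538 CPM and 1545 CPM, and Cox6c at 426 CPM and 1122 CPM. The mitochondrial transcripts went the other way, as given above. The oxidative phosphorylation list was also higher in the stromal gate (0.79) and the T cell gate (0.96). The part of RNA quality in this list was not tested. Glycolysis genes summed to 2071 CPM and 3929 CPM (0.92), and of 11 tested Gapdh and Ldha were at least 2-fold higher and Pfkp, a phosphofructokinase, at least 2-fold lower.

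Macrophage barcodes differed in how much of other cells they held. Stromal markers summed to 185 CPM at 8 weeks and 11.6 CPM at 16 weeks in this gate. Without any barcode holding a UMI of the stromal or endothelial markers, 906 and 1723 macrophage barcodes remained, and the sign of all 14 lists and all 16 ranked genes was kept. The lipid-associated list then stood at 1.08, the perivascular list at -1.34, the G2/M list at 1.39 and Spp1 at 4.10.

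Stromal cells at 16 weeks were lower in progenitor and activated fibroblast genes and higher in Fabp4, collagen VI and contractile genes. UMIs were summed over 30760584 at 8 weeks and 4792256 at 16 weeks. Of 6489 genes with at least 20 CPM in 1 library, 351 (5.41%) were at least 2-fold higher at 16 weeks and 640 (9.86%) at least 2-fold lower, with a median log2 ratio of -0.01.

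The 10 progenitor genes summed to 7811 CPM in WT, 4737 CPM at 8 weeks and 1335 CPM at 16 weeks (-1.83, -1.86 to -1.79), with 8 of 10 at least 2-fold lower against 9.86% of all genes. Pi16 (ENSMUSG00000024011, chr17:29317680-29330593, plus strand), a peptidase inhibitor that marks adventitial progenitors, stood at 2136 CPM in WT, 1184 CPM at 8 weeks and 71.2 CPM at 16 weeks (-4.06). The surface peptidase Dpp4 stood at 219 CPM and 16.3 CPM (-3.75), the semaphorin Sema3c at 379 CPM and 17.7 CPM (-4.42), and the ligand Wnt2 at -3.79. Ly6c1 (-0.86) and Cd34 (-0.98) were within 2-fold. Thinned to 1000 UMIs, with 1578 and 119 shallower barcodes left out, Pi16 was detected in 36.9% of 5711 stromal barcodes at 8 weeks and 4.65% of 1119 at 16 weeks (49.9% and 9.21% unthinned), against 3.23% and 0.255% of macrophage barcodes. Dpp4 was detected in 17.2% and 2.41% (33.8% and 4.36% unthinned), against 0.491% and 0.0511%.

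The adipogenic list was higher in sum but not gene by gene. It stood at 3412 CPM in WT, 5570 CPM at 8 weeks and 14162 CPM at 16 weeks (1.35), and this sum was carried by Fabp4 (chr3:10204088-10208576, minus strand), which stood at 224 CPM, 2118 CPM and 9743 CPM (2.20). Adipoq, the adipocyte hormone adiponectin, was low but past 2-fold at 4.45 CPM and 22.5 CPM, while the regulator Pparg was within 2-fold (0.69), as were Lpl (0.60) and the lipid droplet protein Plin2 (0.91). The early factor Cebpb was at least 2-fold lower (-1.60). Fabp4 was detected in 47.5% and 84.2% of thinned stromal barcodes (66.3% and 90.2% unthinned), while the share in macrophage barcodes was 43.3% and 43.6%. Fabp4 is also abundant in endothelium, and endothelial markers in the stromal gate summed to 57.4 CPM and 138 CPM. Without barcodes holding endothelial or mural markers, 6537 and 1049 remained and Fabp4 stood at 2084 CPM and 7552 CPM (1.86). Fabp4 was also higher at 16 weeks outside the stromal gate. It stood at 1984 CPM and 20435 CPM in ungated barcodes and at 163 CPM and 5221.5 CPM in the T cell gate. The part of free RNA and doublets in the stromal value was not tested.

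Matrix genes differed by member. The collagen list summed to 12783 CPM in WT, 16488 CPM at 8 weeks and 23480 CPM at 16 weeks (0.51), with the collagen VI chains Col6a1 (1.04) and Col6a3 (1.05) at least 2-fold higher and the fibril-associated Col12a1 (-1.13) and Col14a1 (-2.10) at least 2-fold lower. Basement membrane genes summed to 16007 CPM and 20371 CPM (0.35), with Col15a1 (1.02) and nidogen-2, Nid2 (1.25), past 2-fold. Col15a1 was detected in 25.8% and 46.4% of thinned stromal barcodes (40.7% and 69.8% unthinned), against 0.491% and 0.204% of macrophage barcodes. The proteoglycan Bgn was at least 2-fold higher (1.02) and Omd lower (-2.62), while the matrix remodelling list stood at -0.29, with the proteases Adamts1 and Adamts5 at least 2-fold lower. Of the TGF-beta genes, the receptor Tgfbr2 (-1.26), the inhibitor Smad7 (-1.26), the target Skil (-1.31) and the latency protein Ltbp1 (-1.14) were at least 2-fold lower.

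Of the myofibroblast list 5 of 7 tested genes were at least 2-fold higher against 5.41% of all genes, although the summed list had a log2 ratio of 0.24, because fibronectin, Fn1, was abundant and lower (-1.77). Smooth muscle actin, Acta2 (chr19:34241090-34255590, minus strand), stood at 0.168 CPM in WT, 7.05 CPM at 8 weeks and 104 CPM at 16 weeks (3.88), the actin-binding protein Tagln at 6.18 CPM and 72.6 CPM, tenascin C, Tnc, at 20.8 CPM and 156 CPM, and periostin, Postn, at 738 CPM and 2031 CPM (1.46). An Acta2 UMI was present in 0.228% and 4.20% of thinned stromal barcodes (1.07% and 9.45% unthinned), against 0.0409% and 0.0511% of macrophage barcodes. Notch3, the receptor of mural cells, also ranked among the genes with the largest ratio (14.5 CPM and 105 CPM). Mural markers in the stromal gate, Notch3 among them, summed to 24.8 CPM and 222 CPM, and Schwann cell markers to 3.45 CPM and 16.9 CPM. Without barcodes holding endothelial or mural markers other than Notch3, Acta2 stood at 6.20 CPM and 60.3 CPM (3.28), Tagln at 2.09 on the log2 scale, Tnc at 2.41, Notch3 at 2.65 and the G2/M list at 0.64 in place of 1.19. The sign of all 19 lists and all 17 genes followed was kept. The part of mural cells in the contractile transcripts was not tested beyond this.

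The other stromal genes highest at 16 weeks were the interferon-gamma-induced chemokine Cxcl9, at 5.53 CPM and 96.6 CPM (4.13, 3.87 to 4.39), the lysosome biogenesis subunit Bloc1s1, at 17.03 CPM and 122 CPM, and the membrane proteins Tmem176b and Tmem176a, at 84.9 CPM and 445 CPM and at 45.6 CPM and 228 CPM. Bloc1s1 was also higher in the macrophage gate (8.96 CPM and 79.0 CPM) and in ungated barcodes (9.18 CPM and 70.1 CPM). In the T cell gate it stood at 21.2 CPM and 64.1 CPM. Tmem176a and Tmem176b lie on opposite strands and overlap at their start ends, and whether this affects their counts was not tested. Cxcl9 stood at 2.82 on the log2 scale without the endothelial and mural-marked barcodes. The genes lowest at 16 weeks were Dmkn, or dermokine, with 4264 UMIs and 2 UMIs (-8.38, -11.4 to -6.52), its chromosome 7 neighbour Krtdap (99.3 CPM and 2.09 CPM), the bone morphogenetic protein Bmp3 with 1969 UMIs and 3 UMIs (-6.68, -8.95 to -5.13), the receptor Mrgprg (230.3 CPM and 5.01 CPM), Ildr2 (128 CPM and 4.38 CPM) and Limch1 (70.4 CPM and 2.71 CPM). Without the deepest 10% of barcodes the ratio of Acta2 was 5.16, of Tagln 4.45, of Tnc 3.57 and of Cxcl9 3.09. In Y-linked barcodes Tagln stood at 2.60, Tnc at 2.18, Sema3c at -3.00, Limch1 at -3.93 (-9.23 to -1.45, from 1 UMI at 16 weeks) and Pi16 at -6.31 (-8.59 to -4.77, from 3 UMIs).

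Activated fibroblast genes were lower, with a summed level of 2085 CPM at 8 weeks and 527 CPM at 16 weeks (-1.98). Of the 11 listed, 8 were tested and 8 were at least 2-fold lower, against 9.86% of all genes. The hyaluronan synthase Has1 stood at 109 CPM and 7.09 CPM, the pentraxin Ptx3 at -3.28, Cxcl1 at -3.31 and Il6 at -3.02 on the log2 scale. Immediate-early and heat-shock genes moved with them, at 14375 CPM and 6424 CPM (-1.16), with 10 of 14 at least 2-fold lower against the same 9.86%. Interferon response genes stood at 230.2 CPM and 79.7 CPM (-1.53), with 5 of 6 tested at least 2-fold lower against 9.86% of all genes. Complement genes summed to 8217 CPM in WT, 3406 CPM at 8 weeks and 2273 CPM at 16 weeks (-0.58), with C3 at 1220 CPM and 614 CPM and C4b (-1.27) past 2-fold. In Y-linked barcodes alone the complement list had the opposite sign, at 0.26.

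Smaller lists held single genes past 2-fold. Of the retinoic acid genes, the degrading enzyme Cyp26b1 stood at 64.3 CPM and 238 CPM (1.89) and the synthesising enzyme Aldh1a3 at 103 CPM and 4.59 CPM (-4.49), while Aldh1a1, another synthesising enzyme, was within 2-fold (0.71). Aldh1a1 was detected in 6.74% and 11.7% of thinned stromal barcodes (21.1% and 31.7% unthinned), against 0.0818% of macrophage barcodes at 8 weeks. Of the insulin-like growth factor binding proteins, Igfbp7 was at least 2-fold higher (1.11) and Igfbp6 lower (-1.65). Of the glucocorticoid and metallothionein genes, the clock gene Per1 was at least 2-fold higher (1.12) and Zbtb16 lower (-1.50), with Mt1 at 1700 CPM and 3080 CPM. Oxidative phosphorylation genes were higher as in macrophages, at 6201 CPM and 10747 CPM (0.79). Of 28, 11 were at least 2-fold higher and 0 lower, against 5.41% and 9.86% of all genes. Ribosomal protein genes took 13.6% and 19.6% of stromal UMIs, mitochondrial transcripts 4.53% and 0.762%, and haemoglobin transcripts stood at 722 CPM and 5196 CPM.

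**Figure D4:**
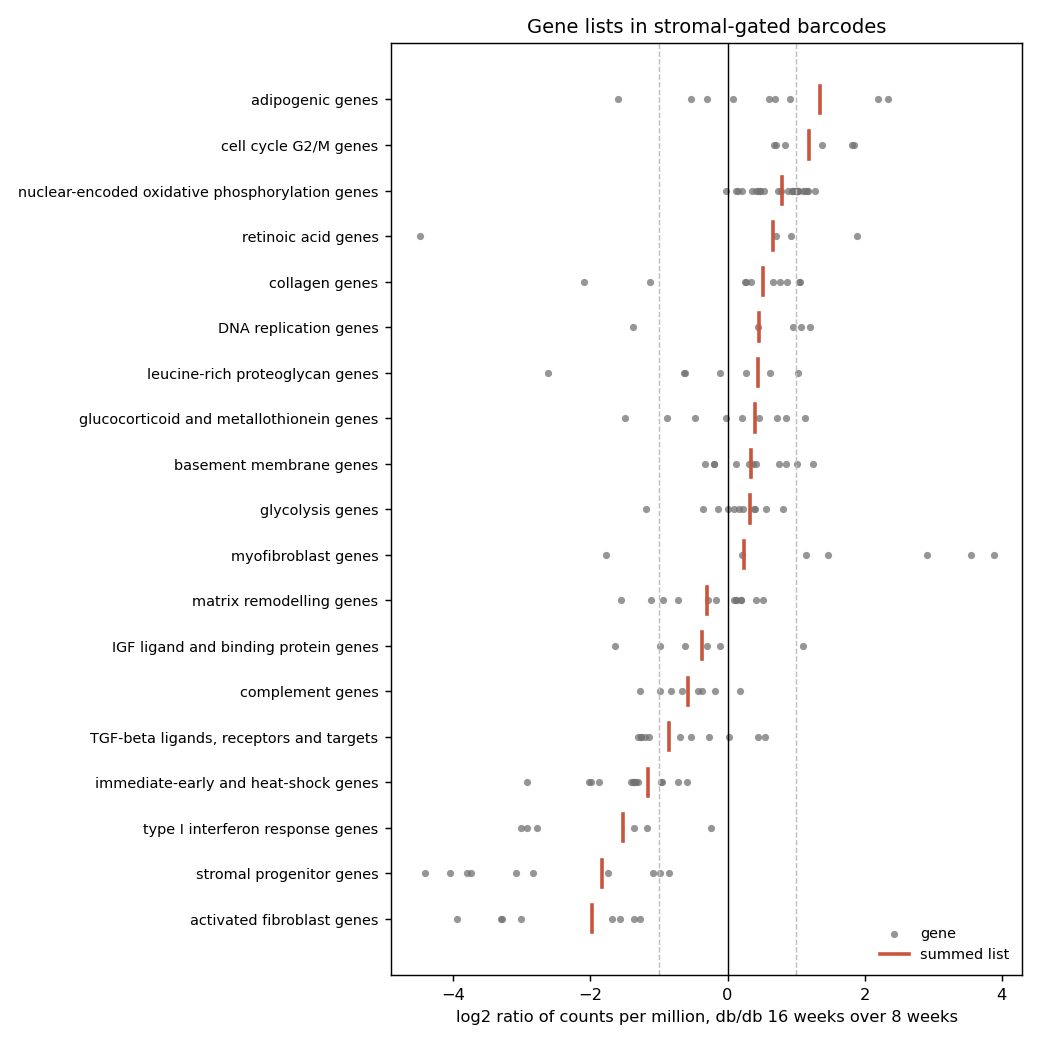
Log2 ratio of the 16-week to the 8-week level (x axis) in stromal barcodes for each gene list (y axis), with tested genes as grey points, the summed list as a red bar and dashed lines at 2-fold. Activated fibroblast and progenitor genes lay lowest, with summed ratios of -1.98 and -1.83, and adipogenic genes highest, with 1.35.

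The T cell gate held 48 barcodes at 8 weeks and 15 at 16 weeks, so 1 UMI was worth 7.07 CPM and 32.0 CPM, and no gene counts were made. At 16 weeks the summed effector list was higher, at 1874 CPM and 6279 CPM (1.74, 1.47 to 2.02), of which Ccl5 made up 1351 CPM and 4837 CPM, and the summed naive genes lower, at 2107 CPM and 513 CPM (-2.04, -2.87 to -1.32). Ccl5 (chr11:83525778-83530518, minus strand), a chemokine of effector T cells, had 191 UMIs in 15 of 48 barcodes at 8 weeks and 151 UMIs in 8 of 15 at 16 weeks. Up to 48 and 38 of these UMIs lay in 1 barcode. The intervals of these ratios take UMIs as independent and do not cover the spread between barcodes. Nkg7, a cytotoxic granule protein, had 31 UMIs in 13 barcodes and 16 UMIs in 7. Ifng had 7 UMIs in 5 barcodes and 19 UMIs in 3, of which 11 lay in 1 barcode, and the granzyme Gzmb had 2 and 5 UMIs. The other effector members were not higher, with 7 UMIs and 1 UMI of Gzma, 6 and 1 of Gzmk, 2 and 0 of the pore-forming Prf1, 5 and 0 of Klrg1, and 14 and 3 of Klrd1 (99.0 CPM and 96.1 CPM). The transcription factor Lef1 of naive cells had 47 UMIs in 26 barcodes and 1 UMI at 16 weeks and the homing receptor Ccr7 had 29 and 1.

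The summed G2/M genes were also higher in T cell barcodes, but not in each member. The list stood at 248 CPM and 1474 CPM (2.57, 1.91 to 3.25). Mki67 had 2 UMIs in 1 barcode and 18 UMIs in 5, and Top2a 5 UMIs in 4 and 14 UMIs in 3. The centromeric histone Cenpa went the other way, with 21 UMIs in 15 barcodes and 1 UMI at 16 weeks, and Cenpf had 4 and 0. Outside the list, Stmn1, a microtubule regulator, had 6 UMIs in 5 barcodes and 32 UMIs in 6. Of the histone gene Hist1h2ap, 48 of 75 UMIs at 16 weeks lay in 1 barcode. Fosb had 84 UMIs in 34 barcodes and 0 UMIs at 16 weeks, the early activation marker Cd69 had 87 UMIs and 3 UMIs, and Vps37b 191 and 8. For inhibitory receptor genes (-0.88, -3.25 to 0.83), CD4 and CD8 genes (0.15) and interferon response genes (-0.14) the interval included equal levels. Endothelial markers in this gate summed to 99.0 CPM and 577 CPM, and all 8 stromal markers were at 0 at 16 weeks.

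The sex-linked transcripts bear on each of these results, because barcodes with a Y-linked UMI and no Xist numbered 1448 macrophage and 2929 stromal barcodes at 8 weeks but 150 and 53 at 16 weeks, and 26 and 1 in the T cell gate. In these barcodes the sign of all 14 macrophage lists was kept, with the lipid-associated list at 0.91, perivascular at -1.84, MHC class II at -2.02, inflammatory at -4.08 and G2/M at 2.29. Of 19 stromal lists 16 kept their sign, with progenitor genes at -1.67, adipogenic genes at 0.73 and collagen genes at 0.74. The exceptions were DNA replication (-0.51, -1.11 to 0.02), glycolysis (-0.03, -0.21 to 0.15) and complement (0.26, 0.16 to 0.36). For DNA replication and glycolysis the interval included equal levels. The 16 ranked genes of each of the macrophage and stromal gates kept their sign. Within the 16-week library, 150 Y-linked and 871 Xist-positive macrophage barcodes also differed from each other, by -0.74 in perivascular, 0.99 in MHC class II and 0.74 in G2/M genes on the log2 scale, Y-linked over Xist-positive, while the lipid-associated list differed by 0.25. The Y-linked macrophage barcodes were deeper than the gate as a whole, with median UMIs of 6443.5 against 5224 at 8 weeks and 7331.5 against 5674 at 16 weeks.

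**Figure D5:**
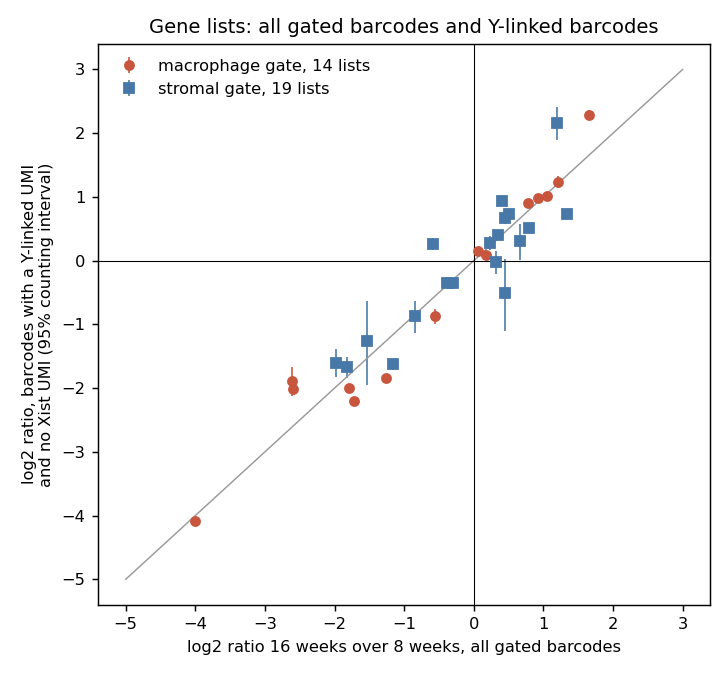
Log2 ratio of the 16-week to the 8-week level of each gene list over all gated barcodes (x axis) against the same ratio over Y-linked barcodes without Xist (y axis), for the macrophage and stromal gates, with 1 point for each list, vertical bars for the 95% counting interval of the Y-linked ratio and the diagonal marking equal values. The macrophage lists kept their sign in 14 of 14 cases and the stromal lists in 16 of 19.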

How the data were processed

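Single-cell RNA of brown adipose SVF was measured with 10x Genomics 3′ libraries. The authors deposited UMI counts (whole numbers for every gene in every called barcode), unfiltered and aligned to mm10. The labels name Cell Ranger 7.1.0 and the file headers 6.0.0. Of 32285 gene IDs, 32235 were found in GRCm38 (99.8%).

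UMIs were summed over the barcodes of a gate and divided by all their UMIs (CPM). Ratios received exact conditional binomial intervals, shares Clopper-Pearson intervals and share differences intervals built from both. These cover counting error only, not the spread between mice, and the ratio intervals do not cover the spread between barcodes. A group at 0 UMIs was set to a floor of 3 counts, and no ratio was given where the floor passed the level of the other group. Genes past 2-fold were counted among those with at least 20 CPM in 1 library, without gate genes and duplicated symbols. Thinning drew 1000 UMIs per barcode. The 33 lists held 340 genes. The members and lists were chosen with earlier results of these data known, and the T cell gate, denominators, other-marker and ribosomal alternatives were added after seeing the data.

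Genes were named by a fixed rule: per gate, the 8 with the largest rise and the 8 with the largest fall by the interval bound nearest 0, with at least 50 CPM in 1 library and highest in that gate, excluding gate, mitochondrial, ribosomal, haemoglobin, sex-linked and predicted genes; list members may also be named. No doublet caller was run. The HFD library was not compared. Scripts used Python 3.11.15, numpy 2.4.6, pandas 2.3.3, scipy 1.17.1 and matplotlib 3.10.9 and were tested on simulated data. A few genes are not reported here.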

Additional observations from a re-analysis of the deposited data

Results flagged for a closer look

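Among the sex-linked transcripts, which served only to select barcodes, Xist at 16 weeks stood above its level at 8 weeks and in WT. The Y-linked genes together stood lower, at 17.7 CPM against 164 CPM at 8 weeks and 178 CPM in WT. Xist stood at 207 CPM over the kept barcodes, against 0.187 CPM at 8 weeks and 0.688 CPM in WT. Of the barcodes with a Y-linked UMI, 5.06% also held Xist, against 39.8% of those without one.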

How the results depend on the processing

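The 9 share and list comparisons kept their direction in each alternative run, but sizes moved. No leave-one-out analysis was possible with 1 library per group, and no paired analysis was possible because each group has 1 library and no replicate number. The macrophage share difference was 19.6 points with an exclusive gate, 7.62 with a strict gate, 18.2 without a mitochondrial limit, 15.7 in barcodes of at least 1000 UMIs, 11.1 without the deepest 10%, 15.5 in Y-linked barcodes, 24.9 without endothelial-marked barcodes and 36.1 over gated barcodes. The stromal difference was -37.5 exclusive, -34.5 strict, -36.6 from 1000 UMIs, -34.5 without endothelial-marked and -36.1 over gated barcodes. List ratios below are log2, in the order lipid-associated, perivascular, collagen and progenitor where they moved. They were 0.99, -1.32 and 0.55 with the exclusive gate (no progenitor value moved), and 0.70, -1.08, 0.46 and -1.89 with the strict gate. Without the deepest barcodes they were 1.11, -1.17, 0.64 and -1.77, in Y-linked barcodes 0.91, -1.84, 0.74 and -1.67, without ribosomal UMIs 0.92, -1.12, 0.62 and -1.72, as means of barcodes 0.90, -0.91, 0.67 and -1.46, and without mitochondrial UMIs 0.72, -1.32, 0.45 and -1.88. With the median gene at 0, the first 3 were 0.88, -1.17 and 0.52. Without a mitochondrial limit, lipid-associated, collagen and progenitor genes gave 0.81, 0.59 and -1.77, and from 1000 UMIs collagen genes gave 0.49. Effector T cell genes gave 2.73 in Y-linked barcodes, of which 1 was at 16 weeks. The cycling share difference was 10.6 points without the deepest barcodes, 16.6 Y-linked, 17.4 thinned to 2000 UMIs and 16.8 at 1 UMI. Genes past 2-fold numbered 269 higher and 331 lower in macrophages and 138 and 216 in stromal cells at 100 CPM, and 1718, 2975, 1522 and 2126 without a filter on low values, among genes with a UMI in both libraries. The number of genes tested changes with the filter, so these counts are not comparable with the main shares. In Y-linked barcodes 4 lists reversed, DNA replication (-0.51), glycolysis (-0.028) and complement (0.26) in stromal cells and glycolysis (-0.21, -2.52 to 1.38) in T cells, and 1 of the 8 T cell genes ranked as higher kept its sign. Of these 4 lists, only complement had an interval that left out equal levels. Beyond the lower filter's admission of more genes, the causes were not tested.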
